A study of Mus musculus with 5 samples.

Results

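The contact profile of a bait in the Dppa2/4 domain was described along chromosome 16 in wild-type mouse embryonic stem cells, using 4C-seq, which sequences the DNA ligated to 1 chosen fragment. The members were all 5-kb windows of the wild-type column outside the bait gap, 19951 windows in build mm9. The series has 5 samples, and 1 of them is this library. It comes from the line 46C, labelled wild type and grown in serum with LIF. The same table holds 1 library with a 45 kb and 1 with a 350 kb boundary deletion, made by CRISPR and read from the same bait. The other samples are clones of a hybrid line with deletions, in another build, and were not used here. With 1 wild-type library there is no replicate check, so all values are descriptions and no test was run. 4C reads carry no expression, so the labelled cell type could not be checked against marker genes.

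Dppa2 and Dppa4 are neighbouring genes for chromatin-bound proteins found in pluripotent cells, and the title of the series names the timing and place of DNA replication as its subject. In 4C, reads usually fall with distance from the bait, because neighbouring parts of 1 chromosome meet more often. Domains and compartments modify that decay: fragments within the bait's domain are met more often than fragments past its boundary, and far contacts tend to join chromatin of a like activity state.

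The bait of this library is given in the labels as a pair of primers. They are shown because the labels define the bait by them. Distances do not run from these primers, which were not placed, but from the gap centre described next. The capitals mark the last bases of each primer that equal the start of the HindIII site AAGCTT.
Forward: agcgtgaggtacatgaAAGC
Reverse: cctgaagagctggtaccaAA
The Forward primer ends on 4 such bases and the Reverse primer on 2, and neither holds the DpnII site GATC. The protocol in the labels names other primers than these. The position of the bait was not checked against a genome sequence here. It was taken as the centre, 48605000, of a gap without windows at 48555001 to 48655000, and the lower and higher coordinates are called below and above the gap.

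The deposited values are a coverage signal averaged over 30 neighbouring windows, or 150 kb. Once the averaging was reversed, 100% of the values were whole reads (within 0.01 of a read) and 0 windows fell below 0. The library held 1714005 own reads, meaning reads of a window itself, in 9134 windows, from 3110001 to 98315000. Below the gap 4512 of 9089 windows between the first read and the gap held reads, or 49.6%. Above it 4622 of 9932 did, or 46.5%. The median window with reads held 54 reads and the highest 23046. Wilson intervals at 95% cover counting error only: reads were not marked by molecular identifiers, so copies of 1 ligation product count more than once.

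The signal was uneven between the sides. Below the gap lay 59.0% of the signal and 58.6% of the own reads (1004885 reads, Wilson interval 58.5 to 58.7%), and above it 41.0% and 41.4%. This direction turns with the place of the bait. With the bait at the centre of the 50-kb bin with the highest signal, 45.7% of the signal lay below it. That bin lies below the gap and is the peak of this same profile, so part of the fall is built in. Measured from the gap centre, the reads below were also nearer: 50% of them lay within 1.27 Mb, and 50% of those above within 2.33 Mb. For 75% of the reads these distances were 9.97 Mb and 24.1 Mb, and for 90% they were 28.5 Mb and 39.9 Mb. They too rest on the place of the bait. With the bait at the highest bin, the classes from 0.05 to 0.25, 0.25 to 0.5 and 0.5 to 1 Mb held 7.16, 3.25 and 3.37% of the signal below. Above, they held 9.83, 9.58 and 7.71%. The upper side is also longer, with 32242 reads past 45 Mb against 197 below.

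Next to the gap, both sides held their highest signal. At 0.05 to 0.25 Mb the mean signal was 7518 below and 4080.1 above, a log2 ratio of 0.88. These 40 windows on each side held 15.2% and 8.23% of the chromosome's signal. At 0.25 to 0.5 Mb the means were 3427 and 2422 (log2 0.50). At 0.5 to 1 Mb they were 915 and 479.8 (log2 0.93). Within 1 Mb the log2 ratio was 0.76. It rests on the place of the bait. With the bait at 48380000, the centre of the 50-kb bin with the highest signal, the ratio within 1 Mb was -1.14. That bin was picked from this same profile and lies below the gap. The move hands high windows of the lower side to the upper side, so a lower ratio is partly built in. The value does not tell which place is right.

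The shape of this near part differed between the sides. Below, the signal rose away from the gap, from 6723 in the nearest 50-kb bin to 8154 in the bin centred 0.225 Mb away (48355001 to 48405000). Own reads rose from 46665 in the nearest bin to 92474 at 0.175 Mb and were 64930 at 0.225 Mb. The peak at 0.225 Mb thus belongs to the running mean. The signal then fell to 1182 at 0.525 Mb and stayed between 988 and 1200.3 until 0.775 Mb. Above, it fell from 5628 at the gap edge to 2276 at 0.275 Mb and rose again to 3155 at 0.375 Mb (48955001 to 49005000). Own reads showed the same dip and shoulder, with 9893 at 0.275 Mb and 41529 at 0.375 Mb. A single window held 71.4% of the reads of the dip and 17.9% of those of the shoulder. Of the 40 pairs of 50-kb bins at equal distance, the signal was higher below in 34 and above in 6, and the own reads were higher below in 29 and above in 11.

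**Figure D1:**
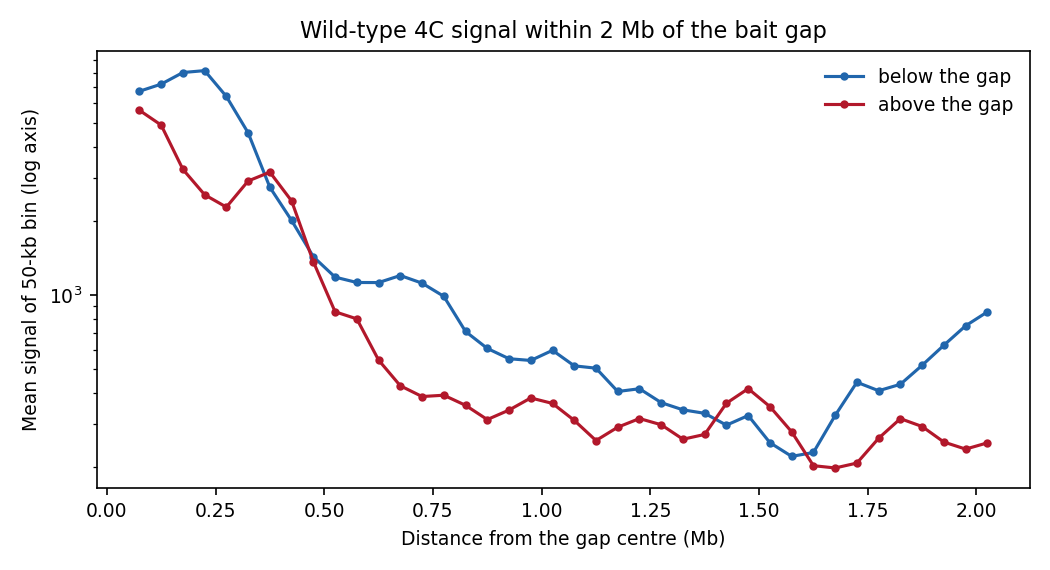
Mean wild-type signal (log axis) of 50-kb bins against distance from the gap centre in Mb, blue below and red above the gap; points are bins of 1 library. Below, the signal peaks at 8154, 0.225 Mb away; above, a dip to 2276 is followed by a shoulder at 3155.

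The labelled boundary lies on the lower side. The windows missing from the 45 kb library, 48185001 to 48230000, are 0.375 to 0.42 Mb from the gap centre. Between them and the gap, 325 kb held 5658 own reads per window in wild type. The 45 kb themselves held 1080 per window, and the next 285 kb, which the 350 kb library also lacks, held 1134. The 325 kb past that held 641 per window. At the same distances above the gap the own reads per window were 3142, 3849, 616 and 328. These are means over whole stretches. In 50-kb bins, own reads below the gap had already fallen from 65012 at 0.275 Mb to 22377 at 0.325 Mb, nearer to the gap than the boundary windows. In the 45 kb windows the log2 ratio of below to above was -1.83 in own reads and -0.31 in the running mean, which spreads neighbouring reads over 150 kb. On either side of these windows it was 0.85 and 0.88 in own reads, in favour of the lower side. The mirror of the 45 kb windows, 48980001 to 49025000, overlaps the shoulder above the gap. The mirror held 3849 own reads per window, with reads in 100% of its windows against 66.7% of the 45 kb windows. Below the gap, the 45 kb windows (1080) were close to the mean of the next 285 kb (1134), which lie farther out. They were low beside their direct flanks, however. The 50-kb bins that overlap them, at 0.375 and 0.425 Mb, held 29782 and 18398 own reads, against 9719 in the 45 kb windows. Which side sets the reversed ratio was not tested.

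From 1 Mb to 5 Mb the lower side stayed higher. At 1 to 2 Mb the mean signal was 415 below and 287 above (log2 0.53). At 2 to 5 Mb it was 289 and 91.1, a log2 ratio of 1.67, the highest of the distance classes. The share of windows with reads was 70.8% below and 56.5% above in that class, and the median window with reads held 207 against 91 reads. In this class both the share of windows with reads and the reads per window were thus higher below. Of 600 windows a side, 157 below and 211 above had no reads in any of the 3 libraries read from this bait. Whether such windows can give reads was not tested. Nearer to the bait the share of windows with reads was higher above, with 71.0% against 62.5% at 1 to 2 Mb and 72.0% against 62.0% at 0.5 to 1 Mb. The ratios at 1 to 2 and 2 to 5 Mb kept their direction with the bait placed at the highest bin (log2 0.71 and 1.12).

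Beyond 5 Mb the sides came closer together, except in 1 class. At 5 to 10 Mb the means were 59.96 below and 60.1 above, with a log2 ratio near 0 (-0.0029). At 10 to 20 Mb they were 53.4 and 38.6 (log2 0.47), with reads in 52.7% and 42.0% of windows. At 20 to 45 Mb, the limit reached on both sides, they were 36.5 and 38.9 (log2 -0.093), with reads in 44.9% and 44.7% of windows. From 10 Mb to that limit the log2 ratio was 0.09. Past 45 Mb the lower side ends in 99 windows with 197 reads, and the upper side has 942 windows with 32242 reads and a mean signal of 39.3.

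The decay was described with a straight line through log2 signal and log2 distance, fitted for each side over 89 bins of 500 kb. Below the gap the slope was -0.80 and above it -0.55, so each doubling of distance multiplied the signal on the line by 0.573 and 0.683. The line passed through a signal of 504 below and 216 above at 1 Mb. Bins scattered about it by 0.60 and 0.67 on the log2 scale (residual SD). Neither side followed a single line. Up to 10 Mb (20 bins each) the slopes were -1.34 and -1.05, and past 10 Mb (69 bins each) they were -0.46 and 0.064. The upper side was therefore flat past 10 Mb, while the lower side went on falling. Without the 2 bins nearest the gap the slopes over all distances were -0.69 and -0.38, and with the bait at the highest bin -0.73 and -0.63.

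**Figure D2:**
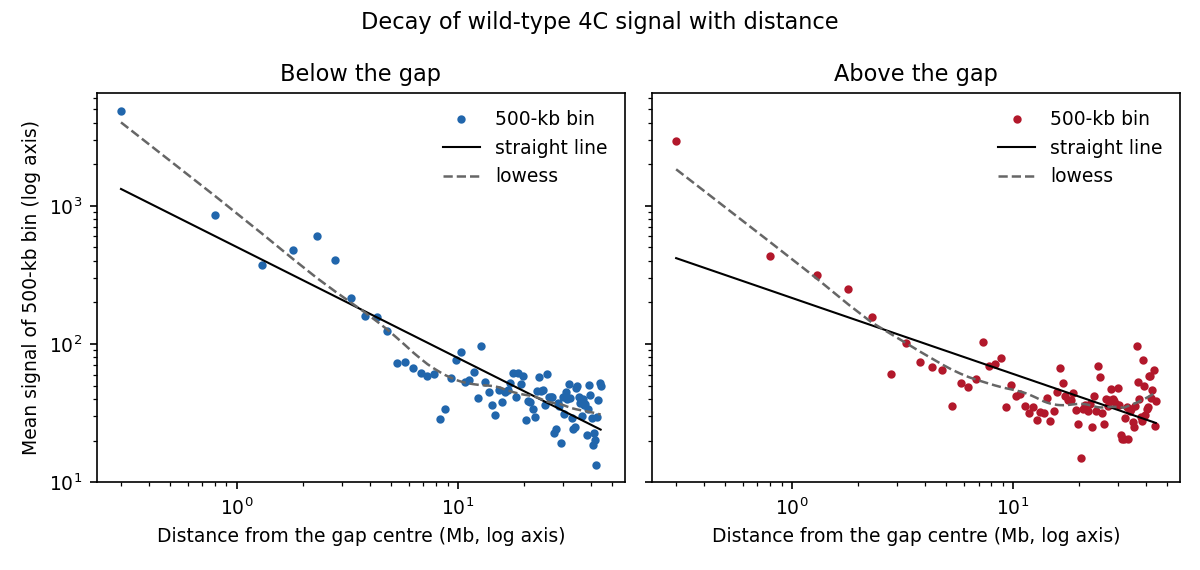
Mean wild-type signal of 500-kb bins against distance from the gap centre (both axes log), one panel per side, with the fitted straight line (slopes -0.80 below and -0.55 above) and a lowess curve. The nearest bins lie over both lines, and past 10 Mb the bins above the gap show a slope of 0.064.

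Fewer windows and fewer reads per window both went with distance, though the share of windows with reads did not fall at every step. Below the gap that share was 62.5% at 1 to 2 Mb and 70.8% at 2 to 5 Mb. Above the gap it was 42.0% at 10 to 20 Mb and 44.7% at 20 to 45 Mb. Below the gap, reads fell in 75.0% of windows from 0.05 to 0.25 Mb. From 5 to 10 Mb it was 53.1%, and from 20 to 45 Mb 44.9%. Their median went from 7348 to 61 and 40 reads. Above it the shares were 80.0%, 50.9% and 44.7%, with medians of 3385, 65 and 41 reads. The medians thus changed far more than the shares. Near the gap few windows carried the signal: the 10 highest windows held 64.2% of the own reads at 0.05 to 0.25 Mb below and 68.6% above. At 20 to 45 Mb they held 3.64% and 3.83%.

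Bins that stood over or under the decay of their own side were counted past a log2 of 1, a 2-fold difference from the line. Below the gap 4 of 89 bins were over the line by that much (4.49%) and 2 under it (2.25%). Above the gap 6 were over (6.74%) and 3 under (3.37%). In all, 15 of 178 bins passed, or 8.43%. All 15 also passed in their own reads. The nearest bin on each side is among them, at 1.87 below and 2.81 above, and both lay within a log2 of 1 of the lowess curve (0.27 and 0.67), which bends with the data. The limit split close values: below the gap the last bin inside was at 1.05 and the first outside at 0.94, and above it they were at 1.08 and 0.90.

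**Figure D3:**
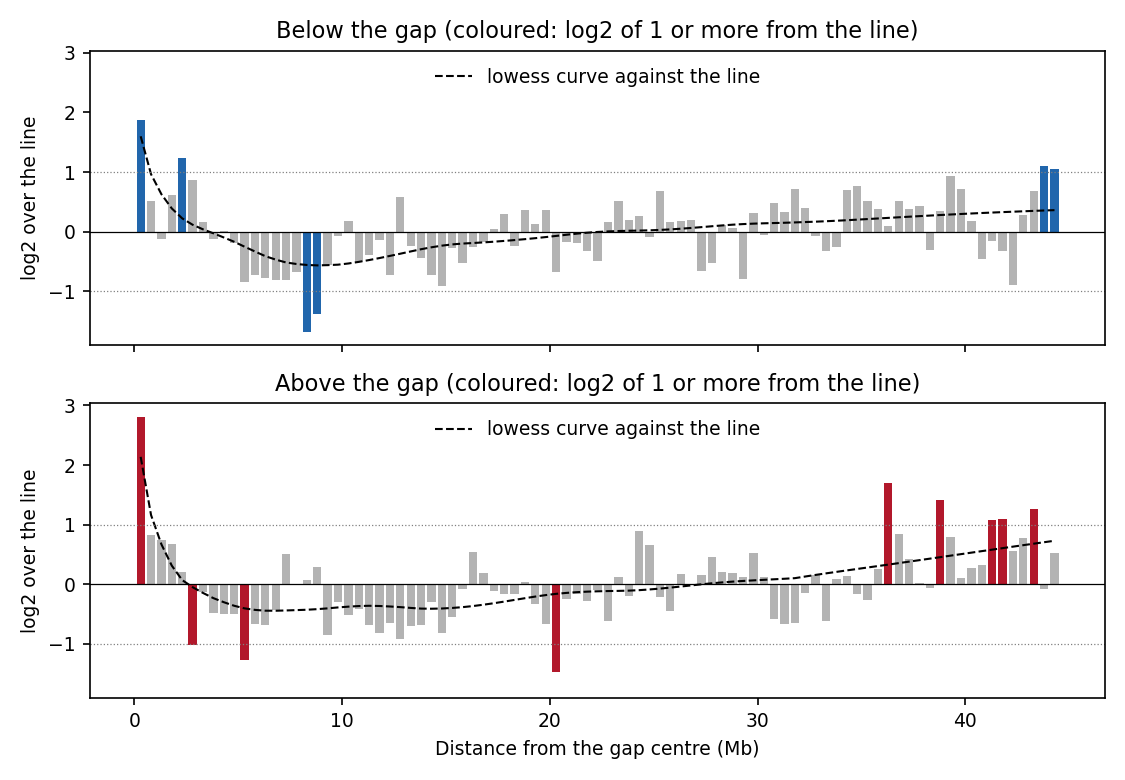
Difference of each 500-kb wild-type bin from the straight line of its side (log2) against distance from the gap centre in Mb, with bins past a log2 of 1 coloured and the lowess curve drawn against the line as a dashed curve. Coloured bins lie at the gap, at 2.3 Mb and past 30 Mb over the line, and at 2.8 to 20.3 Mb under it.

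Below the gap, the bin with the highest value after the nearest was centred 2.3 Mb away, at 46055001 to 46555000. Its signal was 608, against 375 in the bin 1.3 Mb away, which is nearer to the bait. It held 52718 own reads in 77 of its 100 windows, and its highest window held 4.56% of them. It stood 1.24 over the line, 1.29 over a quadratic curve and 1.01 over the lowess curve. The neighbouring bins at 2.8 Mb (signal 403) and 1.8 Mb (signal 481) were at 0.87 and 0.61. These 3 bins form a second rise from 45555001 to 47055000. Its near edge was steep: the 50-kb bins went from a signal of 221 at 1.575 Mb to 854 at 2.025 Mb, and their own reads from 1214 to 7546.

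Past this rise the lower side dropped under its line. All 10 bins from 5.05 to 10.05 Mb were under it, with signals of 28.8 to 77.0 and a median difference of -0.79. The lowest were at 40055001 to 40555000 (8.3 Mb; signal 28.8, log2 -1.68) and at 39555001 to 40055000 (8.8 Mb; signal 33.6, log2 -1.39). The first held 2484 own reads in 38 windows and remained past a log2 of 1 from the quadratic (-1.30) and lowess (-1.12) curves. In the second, 1 window held 19.9% of 2831 own reads, and its difference from the lowess curve was -0.82. The bins at 5.3 and 6.8 Mb were at -0.85 and -0.81. The stretch was less low against the curve that bends with the data. Over the 11 bins from 4.55 to 10.05 Mb the mean difference was -0.78 from the line and -0.33 from the lowess curve. The bin at 9.8 Mb stood 0.49 over that curve.

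Farther out on the lower side, values lay closer to the line. The bin at 14.8 Mb was at -0.91 and the one at 39.3 Mb at 0.94. The last bins tiled, at 43.8 Mb (4555001 to 5055000; signal 52.0) and 44.3 Mb (4055001 to 4555000; signal 49.6), stood 1.10 and 1.05 over the line. Their distances from the lowess curve were 0.75 and 0.69. The lowest signal of the side, 13.3, was at 42.3 Mb (6055001 to 6555000), with 1040 own reads in 30 windows. It stood -0.90 from the line, -1.26 from the quadratic and -1.24 from the lowess curve, and in own reads -1.05 from the line. So it passed the limit with both curves and with own reads, but not with the deposited signal and the straight line.

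Above the gap, the bins from the gap edge to 2.55 Mb were over the line, though only the nearest of them by a log2 of 1. The other bins past that limit were far from the bait. The highest after the nearest bin was centred 36.3 Mb away, at 84655001 to 85155000, with a signal of 96.6. That is close to the 103 of the bin 7.3 Mb away. It held 8319 own reads in 63 windows, with 7.91% in the highest window, and stood 1.69 over the line and 1.36 over the lowess curve. The bin at 38.8 Mb (87155001 to 87655000) had a signal of 76.8 and was at 1.41 from the line and 0.96 from the lowess curve. The bins at 43.3, 41.8 and 41.3 Mb had signals of 64.9, 59.1 and 59.1 and were at 1.26, 1.09 and 1.08. Those last 3 were at 0.58, 0.49 and 0.50 from the lowess curve, so their place past the limit depends on the straight line.

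Bins under the line above the gap were nearer. At 2.8 Mb (51155001 to 51655000) the signal was 60.6, against 158 and 102 in the bins on both sides of it, and the difference from the line was -1.01. At 5.3 Mb (53655001 to 54155000) the signal was 35.8 (log2 -1.26). The lowest signal on this side, 14.8, was at 20.3 Mb (68655001 to 69155000), with 1396 own reads in 34 windows. It was at -1.47 from the line, -1.29 from the quadratic and -1.31 from the lowess curve. The bins at 12.8, 9.3 and 14.8 Mb were at -0.92, -0.85 and -0.82. A long stretch from 9.05 to 16.05 Mb (57655001 to 64655000) lay under the line in all its 14 bins, by a mean of -0.59 and of -0.20 from the lowess curve.

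Of the 15 bins past the limit, 4 passed with the quadratic and the lowess curve as well: those at 2.3 and 8.3 Mb below the gap and at 36.3 and 20.3 Mb above it. With the lowess curve 5 of 178 bins passed in all (2.81%), and with the quadratic 9 (5.06%). The share of windows with reads went with a bin's place: across 87 bins a side, without the 2 nearest, Pearson's r between the windows with reads and the difference from the lowess curve was 0.50 below and 0.60 above. The share of reads in the highest window had an r of -0.30 and -0.37, so bins over the curve tended to have a smaller part of their reads in 1 window. These are correlations across bins of 1 library, which share its reads and, between neighbours, the running mean.

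Bins at equal distance were then compared as 89 mirror pairs. The bin below the gap was higher in 57 pairs and the bin above in 32, with a median log2 ratio of 0.26. The ratio was 2-fold or more in favour of the lower side in 12 pairs (13.5%) and of the upper side in 7 (7.87%). Up to 5 Mb all 10 pairs were higher below, with a median of 1.04. With the bait at the highest bin this held for 7 of 10. From 10 to 20 Mb, 16 of 20 were higher below (17 of 20 with the other bait position). From 20 Mb outward it was 25 of 49, with a median of 0.029. The direction in own reads, which are the same data without the averaging and no separate check, was the same in 86 of 89 pairs.

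**Figure D4:**
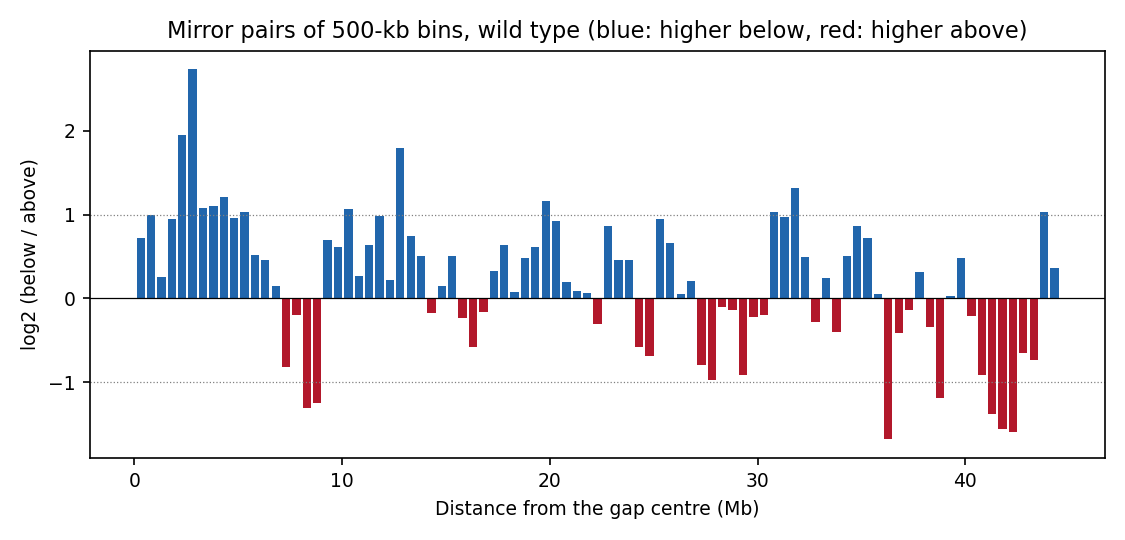
Log2 ratio of the wild-type signal below to above the gap in 89 pairs of 500-kb bins at equal distance, against distance in Mb (blue higher below, red higher above, dotted lines at 2-fold). All 10 pairs within 5 Mb are higher below, and a block near 42 Mb is higher above.

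The pair with the highest ratio was at 2.55 to 3.05 Mb, with a signal of 403 below and 60.6 above (log2 2.73). There the far part of the lower side's second rise faces the bin under the line on the upper side. Next were the pairs at 2.05 to 2.55 Mb (608 and 158, log2 1.95), at 12.55 to 13.05 Mb (96.9 and 28.0, log2 1.79), and at 31.55 to 32.05 Mb (51.3 and 20.5, log2 1.32). The fifth, at 4.05 to 4.55 Mb, held 158 and 68.4 (log2 1.21). In the other direction, the pair at 36.05 to 36.55 Mb held 30.1 below and 96.6 above (log2 -1.68). Neighbouring pairs from 41.05 to 42.55 Mb were at -1.38, -1.56 and -1.60. The pair at 8.05 to 8.55 Mb, where the lower side has its dip, held 28.8 and 71.2 (log2 -1.31).

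The deletion libraries share the bait and the windows, so the wild-type bins were read in them with lines fitted in each library and deleted windows left out. All 15 wild-type bins lay on the same side of the line in both, as did 80.9% of all 178 bins in the 45 kb and 77.5% in the 350 kb library. The 15 were chosen for lying far from the line, and the 178 include bins close to it. A higher share among the 15 is thus partly set by that choice. Past a log2 of 1 in the same direction were 9 of the 15 in the 45 kb library, 60% of the wild-type bins and 34.6% of its own 26, which were 12 over the line (6.74%) and 14 under it (7.87%). In the 350 kb library these were 7, or 46.7% and 43.8% of its 16, with 7 over (3.93%) and 9 under (5.06%). Of the 6 wild-type bins over the line above the gap, 6 passed in the 45 kb and 5 in the 350 kb library. Of the 4 over it below the gap, 1 and 0 passed. Of those under it, 2 and 1 of 2 passed below the gap, and 0 and 1 of 3 above. A bin can miss the limit without a lower signal. The nearest bin below the gap stood 1.87 over the line in wild type and 0.74 in the 350 kb library. Its signals were 4839 and 6702 in the same order. The line below the gap was steeper in the 350 kb library (slope -0.98 against -0.80). Its nearest bins lack the deleted windows, and distances were not shortened by the deletion. At 36.3 Mb above the gap the wild-type signal of 96.6 compared with 99.9 in the 45 kb library, while the 350 kb library had 82.3. At 2.3 Mb below the signal was 608, 522 and 561 in the same order. That bin stood 1.24, 0.92 and 0.55 over the line, so it passed the limit in wild type only. At 8.3 Mb below the signals were 28.8, 36.2 and 71.3, so this bin of the dip was less low in the 350 kb library. The other bin of the dip, at 8.8 Mb, was not: its signals were 33.6, 41.2 and 34.4. It stood -1.39, -1.14 and -1.58 from the line. At 20.3 Mb above the signals were 14.8, 25.5 and 25.4. Across 87 bins a side, Pearson's r of the differences from the lowess curve between wild type and another library was 0.70 to 0.79.

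**Figure D5:**
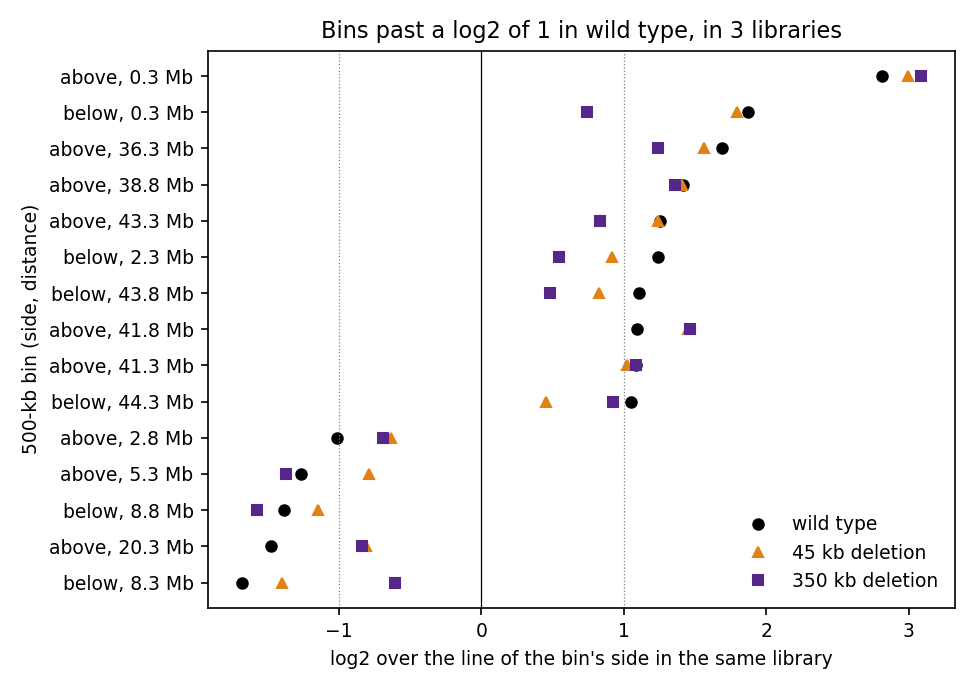
The 15 bins of 500 kb past a log2 of 1 in wild type (side and distance on the vertical axis), each with its log2 difference from the line of its side in the wild-type, 45 kb and 350 kb libraries; dotted lines mark a log2 of 1. All points of a bin lie on the same side of 0, and those of the bins 38.8 and 41.3 Mb above the gap lie closest together.

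Single windows with many reads were mostly shared between libraries near the gap and seldom far from it. Of the 50 wild-type windows with the most reads among 380 within 1 Mb, 43 were also among the top 50 of the 45 kb library and 40 among those of the 350 kb library, which lacks some of them. Past 10 Mb these numbers were 4 and 3 of 50, out of 15041 windows. Lists drawn from 380 windows share more members than lists from 15041 without any agreement, and this was not separated. The 50 far windows had a median of 308 reads per 1000000 in wild type, for which they were chosen, against 91.7 and 78.8 in the other libraries.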

How the data were processed

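One wild-type 4C-seq library was described, with 2 deletion libraries of the same bait read beside it. HindIII was the first and DpnII the second enzyme, per the labels' protocols. Bowtie2, mm9 and mm10 are listed in the submitters' processing notes. Its version is not given in these sources. The authors deposited a coverage signal per 5-kb window, as a running mean over 30 windows without a chromosome column, read here as chromosome 16 of mm9. Libraries were scaled to close totals. Reversing the running mean gave own reads: wild type had 1714005, the 45 kb library 1772088 and the 350 kb library 1465714. The windows of each deletion, set to 0 by the authors, were skipped in that step (45 kb and 330 kb).

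Bins of 500 kb were tiled outward from both gap edges to 44.55 Mb from its centre, 89 on each side, and least-squares lines were fitted per side. Alternatives were a quadratic curve, a lowess curve (fraction 0.5), other bin sizes, medians and another bait position. The named bins are the 6 farthest over and the 6 farthest under the line on each side, and the 5 mirror pairs with the largest ratio in each direction. The steps were tested on simulated data. The members, rules and lists were chosen with earlier results of these data known. No gene is named by position, since no mm9 annotation was used here. Windows without reads outside the first and last read (930) entered no value but the totals. Tools were statsmodels 0.14.6, numpy 2.4.6, matplotlib 3.10.9, scipy 1.17.1 and pandas 2.3.3 in Python 3.11.15.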

Additional observations from a re-analysis of the deposited data

How the results depend on the processing

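With 1 library, every value rests on 1 measurement, and counting intervals are narrow at this depth, so most alternatives moved values past them. The direction of the near ratio and of the share below changed with the place of the bait. Part of that change is built in, because the alternative place is the peak of this same profile and lies below the gap. With the bait at the highest 50-kb bin (48355001 to 48405000), the log2 ratio within 1 Mb was reversed at -1.14 and the share below was 45.7%. The far ratio was then 0.065, the slopes were -0.73 and -0.63, and 1 bin below was under the line by a log2 of 1 or more. The shares of the signal in the classes from the nearest outward were then 7.16, 3.25, 3.37, 5.46, 7.62, 3.26, 5.68 and 9.89% below. Above they were 9.83, 9.58, 7.71, 3.33, 3.50, 3.31, 4.29, 10.6 and 2.13%. With the running mean undone, the share below was 58.6% and the ratio within 1 Mb 0.72. The nearest 3 classes were then at 15.1, 8.54 and 4.46% below and 8.79, 5.84 and 2.47% above, and the class at 1 to 2 Mb below at 4.14%. Without windows within 0.25 Mb, the share below was 57.2%, the ratio 0.64 and the slopes -0.79 and -0.54. With medians, the ratio within 1 Mb was 0.59, the far ratio 0.16 and the slopes -0.82 and -0.55. Leaving out the boundary windows and their mirror, chosen after seeing the data, gave 0.89.

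Slopes were -0.79 and -0.55 in 250-kb bins, -0.84 and -0.58 in 1-Mb bins, -1.34 and -1.05 up to 10 Mb, and -0.46 and 0.064 (reversed) past it. Without the 2 nearest bins, an alternative added after seeing the data, they were -0.69 and -0.38. Bins past the limit, given as over and under below the gap, then over and under above it, were 10, 9, 13 and 8 of 358 bins of 250 kb, and 1, 1, 3 and 1 of 88 bins of 1 Mb. They were 2, 3, 3 and 1 with the quadratic curve and 1, 2, 1 and 1 with lowess. With a limit of log2 0.5 they were 18, 19, 19 and 21. Without the 2 nearest bins 1 bin above the gap was under the line by a log2 of 1 or more. Without the top window of each bin, also added later, 4 bins below the gap were. The 38 other alternative values stayed within their interval or within 1.5 times the count. No paired analysis was possible because each inbred group is 1 library.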

Other observations

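The windows with the most own reads past 10 Mb were spread over both sides, and their reads in the other libraries varied widely. The highest, at 5080001 to 5085000 (43.5 Mb below the gap), held 841 reads, or 491 per 1000000 reads of the library, against 20.9 for the 45 kb and 34.8 for the 350 kb deletion. The window at 11895001 to 11900000 held 744 wild-type reads, against 48 reads for the 45 kb and 0 for the 350 kb deletion. Another, at 87365001 to 87370000 within the bin 38.8 Mb above the gap, held 737 reads, or 430.0 per 1000000, against 20.3 and 102. By contrast, the highest window of the bin 36.3 Mb above the gap, at 84830001 to 84835000, held 384 per 1000000 in wild type, against 370.2 for the 45 kb and 221 for the 350 kb deletion. At 65170001 to 65175000, 16.6 Mb above the gap, the values were 419, 470.1 and 112 per 1000000. These windows were chosen by their wild-type reads, so lower values elsewhere are partly set by that choice.

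Past the tiled bins, the lower end of the chromosome, 3110001 to 4055000, held 2714 own reads in 25.9% of its 189 windows, with a mean signal of 17.0. The upper end, 93155001 to 98315000, held 35216 own reads in 43.8% of 1032 windows, with a mean signal of 39.2. The upper end was thus at the level of the 20 to 45 Mb class of its side (38.9), while the lower end was under that of its own (36.5).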
